A study of Mus musculus with 20 samples.

Results

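The adipogenic transcription factors described here are 10 genes of the 31053 listed in the count matrices, chosen by symbol: Pparg, Cebpa, Cebpb, Cebpd, Ebf2, Prdm16, Klf4, Klf15, Ppargc1a and Zfp423. All 10 symbols were found. Their levels were followed in stromal cells of mouse interscapular brown adipose tissue (iBAT), the thermogenic fat between the shoulder blades, with endothelial cells of the same libraries beside them. The data are 10 single-cell RNA-seq libraries of lineage-negative (Lin-) cells, the part of the stromal vascular fraction left after magnetic removal of cells that carry immune lineage markers. Male C57 mice gave 6 libraries, 2 per group. Groups were room temperature (RT, colony housing of nominally 24 °C), 6 °C for 4 days (COLD) and infusion for 4 days (CL). CL mice received the β3-adrenergic receptor agonist CL316,243 at 0.75 nmol per hour. Female mice of an Adrb1 line gave 4 libraries, 1 each for WT RT, WT COLD, KO RT and KO COLD. WT mice were Adrb1 fl/fl; Pdgfra-CreER -/- and KO mice were Adrb1 fl/fl; Pdgfra-CreER +/-, and both received tamoxifen, so that the β1-adrenergic receptor gene was deleted only in cells that express Pdgfra. Each library pooled 3 to 4 mice aged 8 to 14 weeks, so the pool is the unit of replication.

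These factors act in a cascade when a stromal cell becomes a fat cell. Cebpb and Cebpd encode the early CCAAT/enhancer binding proteins and Klf4 a Krüppel-like factor that acts upstream of Cebpb. Early factors turn on Pparg, the nuclear receptor that is required for fat cell formation, and Cebpa, which sustains Pparg and brings the mature program. Klf15 acts later, on Pparg and on metabolic genes. Ebf2 and Prdm16 direct brown fat identity, Ppargc1a encodes the coactivator PGC-1α of mitochondrial and thermogenic genes, and Zfp423 encodes a zinc finger protein of committed preadipocytes that restrains the thermogenic program.

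Pparg and Cebpb are shown with sequence because both rose in the Adipoq-positive cells described later and because the cascade runs through them. The windows are the 250 bases before an annotated start, from RefSeq promoter windows on GRCm38.p6, and are written 5′ to 3′. The Pparg window precedes the third of 3 listed starts, lies 60.9 kb downstream of the first window and falls in an intron of Pparg with no annotated exon over it. Capitals mark 2 matches to TTGCNNAA, a core of sites that C/EBP proteins bind. The Cebpb window lies within the span of Tmem189, a gene on the other strand, also with no annotated exon over it. Capitals mark 3 matches to TGACG, the core of a cAMP response element.
Pparg, chr6:115421816-115422065, plus strand: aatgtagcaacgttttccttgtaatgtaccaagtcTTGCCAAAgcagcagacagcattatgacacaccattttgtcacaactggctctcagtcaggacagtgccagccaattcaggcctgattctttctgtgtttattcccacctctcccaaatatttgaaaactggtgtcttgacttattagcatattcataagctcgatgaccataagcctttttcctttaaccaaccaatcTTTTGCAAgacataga
Cebpb, chr2:167688665-167688914, plus strand: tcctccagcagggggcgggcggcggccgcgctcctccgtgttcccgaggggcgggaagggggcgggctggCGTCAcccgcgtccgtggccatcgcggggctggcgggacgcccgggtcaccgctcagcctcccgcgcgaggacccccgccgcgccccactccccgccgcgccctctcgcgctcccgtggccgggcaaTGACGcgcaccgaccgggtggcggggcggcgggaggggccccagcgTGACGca

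In the Pparg window the leftmost bases of the matches lie at -215 and -16 from the start. In the Cebpb window they lie at -180, -53 and -7. Both strands were searched in windows of 300 bases that also hold 50 bases after the start. TTGCNNAA was present in 10.8% of 32851 such windows and TGACG in 20.8%. Of the 10 factors, 8 had a window in the table, and Cebpd and Ebf2 had none. Besides Pparg, TTGCNNAA was found only in the first window of Zfp423, with 2 matches, and the other 2 Pparg windows held none. TGACG was also found in the windows of Klf15 (2 matches), Klf4 (1) and Ppargc1a (1). The palindrome CACGTG, present in 7.15% of all windows, had 3 matches in Klf15 and 1 in Klf4. A match describes letters only, and the 3′ end counts of these libraries cannot tell the starts of Pparg apart.

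After filtering, 66339 of 89637 barcodes remained, with about 7857160 to 31325800 UMIs per library. The C57 RT library 2 had the fewest UMIs in all and kept 28.0% of its barcodes, because 72.0% carried at least 10% mitochondrial UMIs. Per cell, the median was lowest in CL 1, at 1204 UMIs against 1247 in RT 2. Pairs of libraries shared 0 to 193 barcodes, at most 2.04% of the smaller library of a pair. Clusters were named from marker lists, as "-like" cells, and none of the 10 factors was among the markers. ASC1-like, ASC2-like and ASC3-like cells are 3 types of adipose stromal cell (ASC), the fibroblast-like, Pdgfra-expressing cells of the tissue, and VEC-like cells are vascular endothelial cells. In all, 12134 cells stayed unnamed, and they made up 36.1% of the CL 1 library against 10.3% to 20.6% of the others. ASC1-like cells came from different clusters in different groups. In RT 1, 1461 of 1514 lay in a cluster led by Hsd11b1, Smoc2 and Spon1, and in RT 2, 1162 of 1296 lay in one led by Cnmd, Fbln7 and Smoc2. In COLD 1 and COLD 2, 2353 of 2693 and 1841 of 2133 lay in a cluster led by the inflammatory genes Cxcl9, Timp1 and Ccl2. The CL replicates split, with 761 of 1043 cells of CL 1 in the main COLD cluster and 801 of 1133 cells of CL 2 in the main RT 2 cluster. The summed level of the 9 ASC1 markers in ASC1-like cells was 11462 and 15803 CPM (counts scaled to a common total per class and library) in the RT libraries, 3978 and 4039 in COLD, and 5011 and 7087 in CL. Any difference between treatments in ASC1-like cells is therefore also one between these clusters. Of the ASC2-like cells, 1010 of 1386 in WT RT and 258 of 473 in KO RT lay in a cluster led by Smpd3, Col6a5 and Mrgprg. That cluster held 0 to 41 cells in each other library, so ASC2-like levels of WT RT and KO RT are also those of this cluster.

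The first question was where each factor is expressed. Levels are CPM of summed counts per class and library, given as mean ± SD over the 6 C57 libraries, and orders between classes were counted over all 10 libraries. The classes were described and not tested. The share of all genes with such orders was not counted, so counts of factors here are a description only. Pparg, Cebpa, Klf15 and Ppargc1a stood higher in ASC1-like than in ASC2-like cells in 10 of 10 libraries. Ebf2, Klf4 and Zfp423 stood higher in ASC2-like cells in 10 of 10. Endothelial cells, taken as a type in which these genes should be low, were low for Ebf2, Cebpb, Cebpd and Klf15 but held more Pparg and Prdm16 on average than any stromal class.

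**Figure D1:**
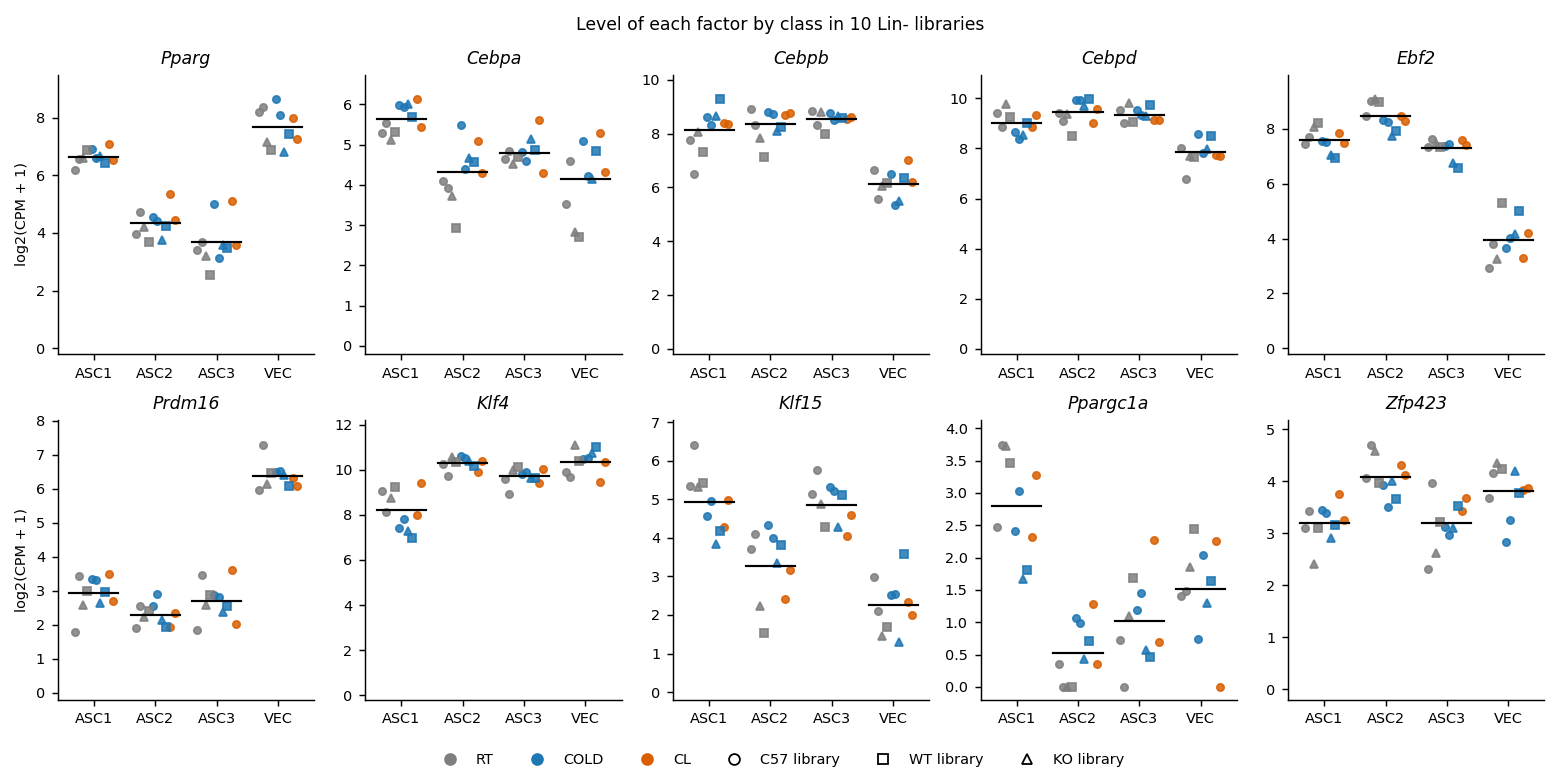
Level of each factor as log2(CPM + 1), in ASC1-like, ASC2-like, ASC3-like and VEC-like cells. Each point is 1 of 10 libraries, colour gives the treatment, shape gives C57, WT or KO, and the bar is the mean over libraries. The Cebpa, Ppargc1a and Klf4 points of ASC1-like cells show the order described in the text: Cebpa and Ppargc1a highest in ASC1-like cells and Klf4 lowest there.

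Among the early factors, Cebpb was at 279 ± 109 CPM in ASC1-like cells, 415 ± 53.7 in ASC2-like cells and 388 ± 53.1 in ASC3-like cells (SD, n = 6). The 3 stromal ranges overlapped. VEC-like cells were lower, at 79.3 ± 34.0 CPM, in all 10 libraries. Cebpd followed the same order, with 496 ± 137 CPM in ASC1-like cells, 742 ± 203 in ASC2-like cells, 624 ± 98.9 in ASC3-like cells and 233 ± 89.8 in VEC-like cells. Klf4 was at 355 ± 202 CPM in ASC1-like cells and at 1224 ± 284 in ASC2-like cells, and ASC1-like cells were the lowest of the 4 classes in 10 of 10 libraries. Endothelial cells, which are known to use Klf4, had 1108 ± 327 CPM and exceeded ASC2-like cells in 5 of 10 libraries.

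Of the core pair, Pparg reached 101 ± 22.1 CPM in ASC1-like cells, 24.0 ± 8.50 in ASC2-like cells and 17.4 ± 11.7 in ASC3-like cells. VEC-like cells held 283 ± 81.1 CPM and vascular smooth muscle-like cells 237 ± 32.7, and endothelial cells exceeded ASC1-like cells in 9 of 10 libraries. Pparg is known to be active in fat capillaries, so endothelial cells are no floor for this gene. Cebpa stood at 52.9 ± 12.5 CPM in ASC1-like cells against 24.2 ± 11.6 in ASC2-like cells, 28.1 ± 10.2 in ASC3-like cells and 23.6 ± 10.3 in VEC-like cells. ASC1-like cells were above each of these others in 10 of 10 libraries. Among the other 3 classes the ranges overlapped, and ASC3-like cells were above ASC2-like cells in 9 of 10 libraries and above VEC-like cells in 8. Smooth muscle-like cells held 33.9 ± 17.1 CPM of Cebpa and immune-like cells 34.8 ± 18.3, and both ranges overlapped that of ASC1-like cells. Klf15 separated ASC2-like cells (12.5 ± 5.53 CPM) from ASC1-like (37.6 ± 23.9) and ASC3-like cells (33.5 ± 13.1), which exceeded them in 10 of 10 libraries each.

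Among the brown fat regulators, Ebf2 was at 357 ± 80.2 CPM in ASC2-like cells, 192 ± 20.6 in ASC1-like cells and 175 ± 14.4 in ASC3-like cells, and the order held in 10 of 10 libraries. Endothelial cells had 12.1 ± 4.02 CPM. Prdm16 was low in stromal cells. It was at 7.72 ± 3.06 CPM in ASC1-like cells, 4.34 ± 1.41 in ASC2-like cells and 6.61 ± 3.57 in ASC3-like cells, and these ranges overlapped. It stood at 90.5 ± 33.7 CPM in VEC-like cells. Ppargc1a was at 6.85 ± 3.30 CPM in ASC1-like cells and at 0.678 ± 0.570 in ASC2-like cells, where RT 2 had no count. VEC-like cells had 1.83 ± 1.43 CPM of Ppargc1a, and ASC2-like cells were above them in 2 of 10 libraries. Zfp423 was at 16.8 ± 4.92 CPM in ASC2-like cells, 9.64 ± 1.67 in ASC1-like cells and 11.7 ± 3.83 in VEC-like cells. For Zfp423, ASC1-like cells were above VEC-like cells in 2 of 10 libraries. Of the 10 factors, 3 (Cebpa, Klf15 and Ppargc1a) had their highest mean in ASC1-like cells among the 4 classes. The share of all genes with their highest mean there was not counted, so this is no result about the factors.

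The second question was whether cold or CL changed the factors within ASC1-like cells. None of the 10 passed the test in either comparison, and the values below are given with that in view. Cebpb was higher and Klf15 lower in each of the 4 stimulated libraries than in both RT libraries. How many of all genes separate in this way was not counted, so this is a description only. Values are given for replicates 1 and 2 of RT, COLD and CL in that order, and log2 fold changes carry their SE from edgeR's quasi-likelihood fit over the 6 C57 libraries.

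Cebpa was at 38.3 and 45.2 CPM in RT, 62.7 and 59.7 in COLD, and 69.0 and 42.4 in CL. Both COLD libraries were above both RT libraries, while CL 2 lay between the RT libraries. The log2 fold change of COLD over RT was 0.67 ± 0.20 (adjusted p = 0.0632, edgeR). Pparg was at 71.2 and 94.4 CPM in RT, 120 and 96.6 in COLD, and 133 and 91.7 in CL. COLD 2 and RT 2 lay close together, and the COLD change was 0.54 ± 0.19 (adjusted p = 0.111, edgeR). Cebpb was at 216 and 90.3 CPM in RT, 393 and 317 in COLD, and 333 and 322 in CL. All 4 stimulated libraries were above both RT libraries, which differed from each other by more than COLD 2 differed from RT 1. The change was 1.19 ± 0.54 after cold (adjusted p = 0.191) and 1.12 ± 0.54 with CL (adjusted p = 0.466, edgeR).

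Klf15 was at 39.9 and 84.1 CPM in RT, 22.6 and 30.0 in COLD, and 18.3 and 30.9 in CL. Its log2 fold change was -0.97 ± 0.29 after cold (adjusted p = 0.0649) and -0.93 ± 0.31 with CL (adjusted p = 0.281, edgeR). Klf4 was at 528 and 278 CPM in RT, 167 and 224 in COLD, and 253 and 679 in CL. The COLD libraries were the lowest, whereas the CL libraries spanned both RT values, and the COLD change was -1.02 ± 0.65 (adjusted p = 0.353, edgeR). Cebpd was at 684 and 460 CPM in RT, 407 and 328 in COLD and 458 and 639 in CL. Prdm16 stood at 2.49 and 9.76 CPM in RT, 9.23 and 9.02 in COLD and 10.3 and 5.54 in CL, so the 2 RT libraries enclosed both COLD values. The log2 fold changes of Ebf2, Ppargc1a and Zfp423 lay between -0.19 and 0.40 in both comparisons, with SE of 0.25 to 0.50.

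Across all genes, cold changed 10.8% of 12396 genes tested in ASC1-like cells (1344 genes), and CL changed 0.895%. The 0 of 10 factors called after cold therefore compare with a background of about 1 in 10 genes. At an unadjusted p under 0.05, edgeR marked 4 factors after cold (Pparg, Cebpa, Prdm16 and Klf15) and 3 with CL (Pparg, Cebpa and Klf15), a threshold that 27.9% and 11.8% of all genes met. DESeq2 called none in either. The median log2 fold change of the 10 factors was 0.20 after cold and 0.36 with CL, against 0.01 and 0.00 over all genes. COLD and CL were also compared directly in ASC1-like cells. Again 0 of 10 factors were called, with 0 at an unadjusted p under 0.05, in a comparison in which 0.452% of genes were called and 11.6% met the unadjusted threshold. The largest difference was that of Klf4, at -1.35 ± 0.66 for COLD over CL (adjusted p = 0.480), and it was -0.26 without CL 2 (adjusted p = 0.976) and -1.97 without CL 1 (adjusted p = 0.236). The comparisons with RT share the same 2 RT libraries.

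These counts moved with the fit. With the replicate number as a block, Cebpa (0.70, adjusted p = 0.0205) and Klf15 (-1.01, adjusted p = 0.00389) passed after cold, where 16.6% of all genes did, and Klf15 passed with CL (-1.03, adjusted p = 0.0258), where 2.03% did. Without RT 1 the Cebpb change after cold was 2.47, and without RT 2 it was 0.51. With CL the Cebpb change ranged from 0.45 to 2.40 over 13 alternatives. The Klf4 change after cold was -0.01 without RT 1 (adjusted p = 0.996) and -1.63 without RT 2 (adjusted p = 0.167).

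Signs of cell handling and of adipocyte RNA are given beside these results. Immediate-early genes, which tissue digestion can turn on, are known to move with Klf4, Cebpb and Cebpd. The 16 genes listed summed to 14677 and 5532 CPM in ASC1-like cells of RT 1 and 2, 8040 and 7604 in COLD, and 8951 and 15019 in CL, so that the 2 libraries with the most Klf4, CL 2 and RT 1, had the highest sums. Of these 16 genes, 0 passed in ASC1-like cells after cold or with CL. The 10 adipocyte markers summed to 331 and 222 CPM in RT, 312 and 201 in COLD and 618 and 342 in CL. The part of either in the results was not tested.

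Other genes of the pathway passed in numbers to be read against the 10.8% of all genes called after cold and 0.895% with CL. Among 28 tested of 30 further adipogenic regulators, 1 rose after cold in ASC1-like cells, Egr2 (0.83 ± 0.20, adjusted p = 0.0308), a factor that acts upstream of Cebpb. In the same list 4 fell, led by Srebf1, the master regulator of fatty acid synthesis (-2.23 ± 0.22, adjusted p = 0.000960), and the thyroid hormone receptor gene Thra (-1.04 ± 0.23, adjusted p = 0.0216). Srebf1 also fell with CL, by 1.77 ± 0.23 on the log2 scale (adjusted p = 0.0155), as the only gene of the list to pass there. Of 19 tested genes listed as repressors of adipogenesis, Nr2f1 rose after cold (1.21 ± 0.23, adjusted p = 0.0121, edgeR). In that list 2 fell, the preadipocyte factor Dlk1 (-4.72 ± 0.56, adjusted p = 0.00181) and Sox9 (-0.58 ± 0.16, adjusted p = 0.0479, edgeR). Here and below, repressor means a member of this list, and the role of each gene was not tested. No repressor passed with CL.

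Of 20 lipid genes that PPARγ and C/EBPα are known to control, 5 rose and 3 fell in ASC1-like cells after cold, and 4 rose and 1 fell with CL. Adipoq, the adiponectin gene, rose by 5.90 ± 1.09 after cold and 6.42 ± 1.10 with CL. Its median level over the C57 libraries was 11.2 CPM in ASC1-like cells (highest 52.5), 8.62 in ASC2-like cells (highest 49.5) and 19.2 in VEC-like cells (highest 92.9), which do not make it, and the part of adipocyte RNA in the rise was not tested. Fasn (-1.22 ± 0.31) and Scd1 (-1.14 ± 0.31), enzymes of fatty acid synthesis, fell after cold. Of 9 thermogenic genes tested, 2 rose after cold and 3 with CL, and Ucp1, the uncoupling protein of brown adipocytes, rose in both (2.67 ± 0.59 and 5.24 ± 0.54) and was lower in COLD than in CL (-2.57 ± 0.38, adjusted p = 0.0330). No other gene of these 4 lists passed between COLD and CL. Ucp1 reached 62.1 CPM in ASC1-like cells and 358 CPM in VEC-like cells, a type that does not make it, over the C57 libraries.

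In ASC2-like cells 9 of the 10 factors were tested, and 0 were called after cold or with CL by edgeR or DESeq2, where 0.787% and 0.0562% of all genes were. At an unadjusted p under 0.05 there were 2 after cold and 1 with CL, where 10.3% and 7.54% of all genes were. Cebpa in ASC2-like cells was at 16.1 and 14.2 CPM in RT, 43.5 and 19.9 in COLD, and 33.1 and 18.6 in CL, and libraries numbered 1 were the higher in each stimulated group. Its cold change was 0.99 ± 0.37 (adjusted p = 0.382, edgeR). With the replicate number as a block it was 1.04 and passed (adjusted p = 0.0301, edgeR), where 2.19% of genes did. Over 13 alternatives the Cebpa change ranged from 0.47 to 1.45. The adipocyte markers in ASC2-like cells moved alike, at 32.3 and 65.0 CPM in RT, 338 and 96.9 in COLD, and 577 and 119 in CL, and their part was not tested. No gene of the regulator, repressor, lipid or thermogenic lists passed in ASC2-like cells.

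In ASC3-like cells 0 of 9 factors were called in either comparison by edgeR or DESeq2, with 0 after cold and 1 with CL (Klf15) at an unadjusted p under 0.05. The share of all genes called was 0.46% after cold and 0.136% with CL, and 7.88% and 5.37% were under 0.05 unadjusted. Of 8 thermogenic genes tested there, 2 rose after cold and 3 with CL, with Ucp1 at 4.71 ± 0.85 and 5.55 ± 0.78, and of 18 lipid genes 1 rose with CL, Cfd (3.80 ± 0.63). The 10 adipocyte markers, which include Ucp1 itself, summed in ASC3-like cells to 46.6 and 90.5 CPM in RT, 242 and 127 in COLD, and 468 and 123 in CL, and their part was not tested. No regulator or repressor passed. In VEC-like cells 0 of 8 factors were called by edgeR or DESeq2, with 1 each (Zfp423 after cold, Cebpa with CL) at an unadjusted p under 0.05. Here 0.334% of genes were called after cold, with 11.3% under 0.05 unadjusted, and 0% with CL, where 864 genes (8.48%) were under 0.05 unadjusted and DESeq2 called 21. Cebpa in VEC-like cells was at 10.4 and 23.2 CPM in RT, 33.0 and 17.8 in COLD, and 38.1 and 18.8 in CL, so that in COLD and CL, but not in RT, the first replicate was well above the second. The adipocyte markers in VEC-like cells had the same order within each group, at 272 and 511 CPM in RT, 873 and 553 in COLD, and 1379 and 368 in CL, and their part was not tested. Klf4 and Pparg, the factors that endothelial cells hold at high level, differed there by 0.71 ± 0.46 and 0.13 ± 0.28 after cold, neither past the test, and no gene of the 4 pathway lists passed.

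Whether ASC1-like and ASC2-like cells responded differently was tested directly, in a fit to the ASC1-like and ASC2-like sums that took each library as a block. For cold, 4 of 10 factors passed, where 8.22% of all genes did, 3.55% higher and 4.67% lower in ASC1-like relative to ASC2-like cells. The response of Cebpb was the higher one in ASC1-like cells. That of Cebpd, Klf4 and Klf15 was the lower one.

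**Figure D2:**
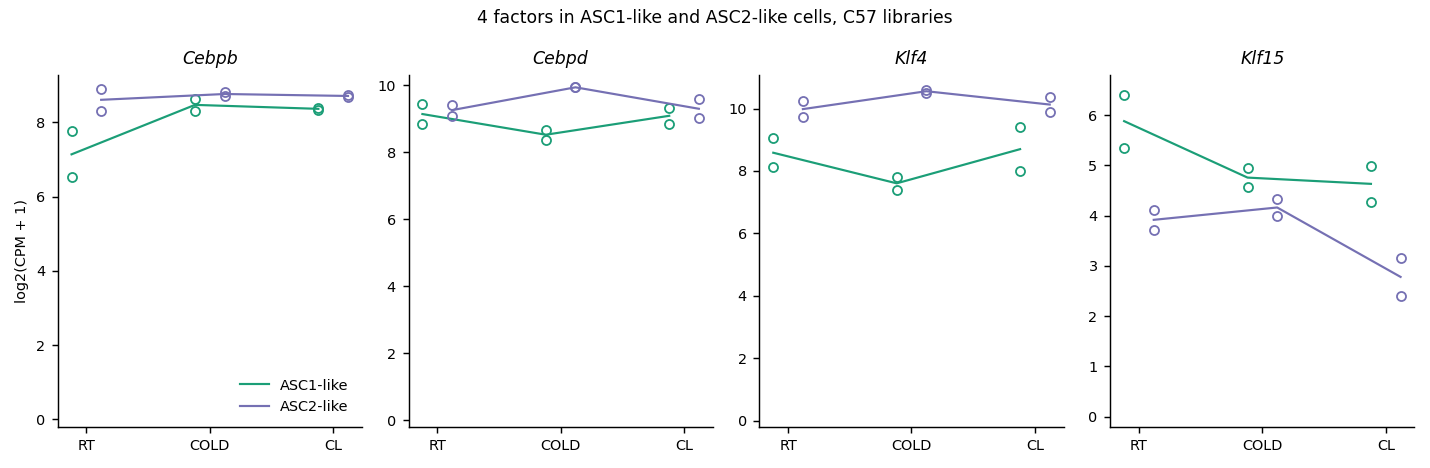
Cebpb, Cebpd, Klf4 and Klf15 in ASC1-like and ASC2-like cells as log2(CPM + 1), by treatment. Points are the 2 C57 libraries of each group and lines join group means. Cebpd and Klf4 were lower in COLD than in RT in ASC1-like cells while their ASC2-like values were higher.

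The Cebpb difference was 1.21 ± 0.28 (adjusted p = 0.0155, edgeR). In ASC2-like cells Cebpb was at 475 and 317 CPM in RT and 445 and 421 in COLD, so that the groups overlapped, unlike in ASC1-like cells. The Cebpd difference was -1.25 ± 0.33 (adjusted p = 0.0300). In ASC2-like cells Cebpd was at 682 and 543 CPM in RT and 978 and 975 in COLD, so both classes kept their COLD and RT libraries apart, in opposite directions. The Klf4 difference was -1.51 ± 0.41 (adjusted p = 0.0350), with 1215 and 842 CPM in RT and 1560 and 1453 in COLD in ASC2-like cells. The Klf15 difference was -1.28 ± 0.29 (adjusted p = 0.0137), and its ASC2-like values of 12.2 and 16.3 CPM in RT and 19.2 and 14.9 in COLD overlapped.

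Of the 16 immediate-early genes, 2 were called lower in ASC1-like relative to ASC2-like cells in the same comparison, with a median of -0.75. This is the direction of Cebpd and Klf4 and opposite to that of Cebpb, and its part was not tested. In the other lists, 2 of 28 regulators were lower (Srebf1, -1.16 ± 0.17, and Klf9, -1.03 ± 0.27), 1 of 19 repressors was higher (Nr2f1, 2.06 ± 0.30) and 1 lower (Runx1t1, -0.81 ± 0.18), and 2 of 20 lipid genes were lower (Fasn and Pnpla2). The 4 calls were lost at a finer clustering (resolution 2), without COLD 1, and with the replicate number in place of the library as block, while their directions held. Without COLD 2 only Klf15 passed (-1.70, adjusted p = 0.0146). For CL, 0 of 10 factors differed between the classes by edgeR or DESeq2, with Cebpb alone (1.06 ± 0.28, adjusted p = 0.126) at an unadjusted p under 0.05, where 0.775% of genes were called and 9.63% were under 0.05 unadjusted. Srebf1 (-0.83 ± 0.17), Dlk1 (-2.61 ± 0.49), Scd1 (-1.58 ± 0.26) and Fasn (-1.12 ± 0.23) were the members of the lists that were lower there.

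The third question was how the factors stand in cells that divide and in cells that hold Adipoq RNA. ASC1-lineage cells are the ASC1-like, cycling and differentiating clusters together, 17868 cells in all. The name is a label for this set. Descent of the cells, or passage from one state to another, was not tested. Of the ASC1 markers, 5 were raised in the cycling cluster (1454 cells) and 2 in the cluster both cycling and differentiating (2501 cells). In the differentiating cluster led by Cfd, Retn and Hp (917 cells, 575 in CL 1), 0 were raised. ASC1-lineage cells were sorted in silico into 4 states with gates that use none of the factors. Cycling cells gave at least 0.2% of their UMIs to 12 cell cycle genes and held at least 3 counts of them, so the gate depends on depth. Adipoq-positive cells had a corrected Adipoq count of at least 1. Past the cycle gate were 2279 cells, with 618 cells between 0.15% and 0.25%, and 2607 were Adipoq-positive, of which 263 had a count of 1 to 2, while 444 lay just under the gate between 0.5 and 1. Adipoq-positive cells were rare at RT, with 1 non-cycling cell of 1522 in RT 1 and 6 of 1325 in RT 2. Non-cycling Adipoq-positive cells made up 14.3% and 8.13% of ASC1-lineage cells in COLD 1 and COLD 2, 26.4% and 5.31% in CL 1 and CL 2, 3.71% in WT COLD and 1.27% in KO COLD. COLD was thus below CL in replicate 1 and above it in replicate 2. States were compared within the 6 libraries of stimulated mice (COLD 1 and 2, CL 1 and 2, WT COLD and KO COLD), with the library as a block and sums of under 20 cells left out, which left 6, 6, 5 and 4 libraries for the states neither, cycling, Adipoq-positive and both.

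Adipoq-positive cells differed most. Against cells in neither state, 9 of 10 factors passed, 7 higher and 2 lower, and Zfp423 did not. All genes passed at 67.5%, 30.5% higher and 37.1% lower, so that a large share of the transcriptome differed between these states. Ppargc1a and Cebpa rose most, and the early factors split, with Cebpb up and Cebpd and Klf4 down.

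**Figure D3:**
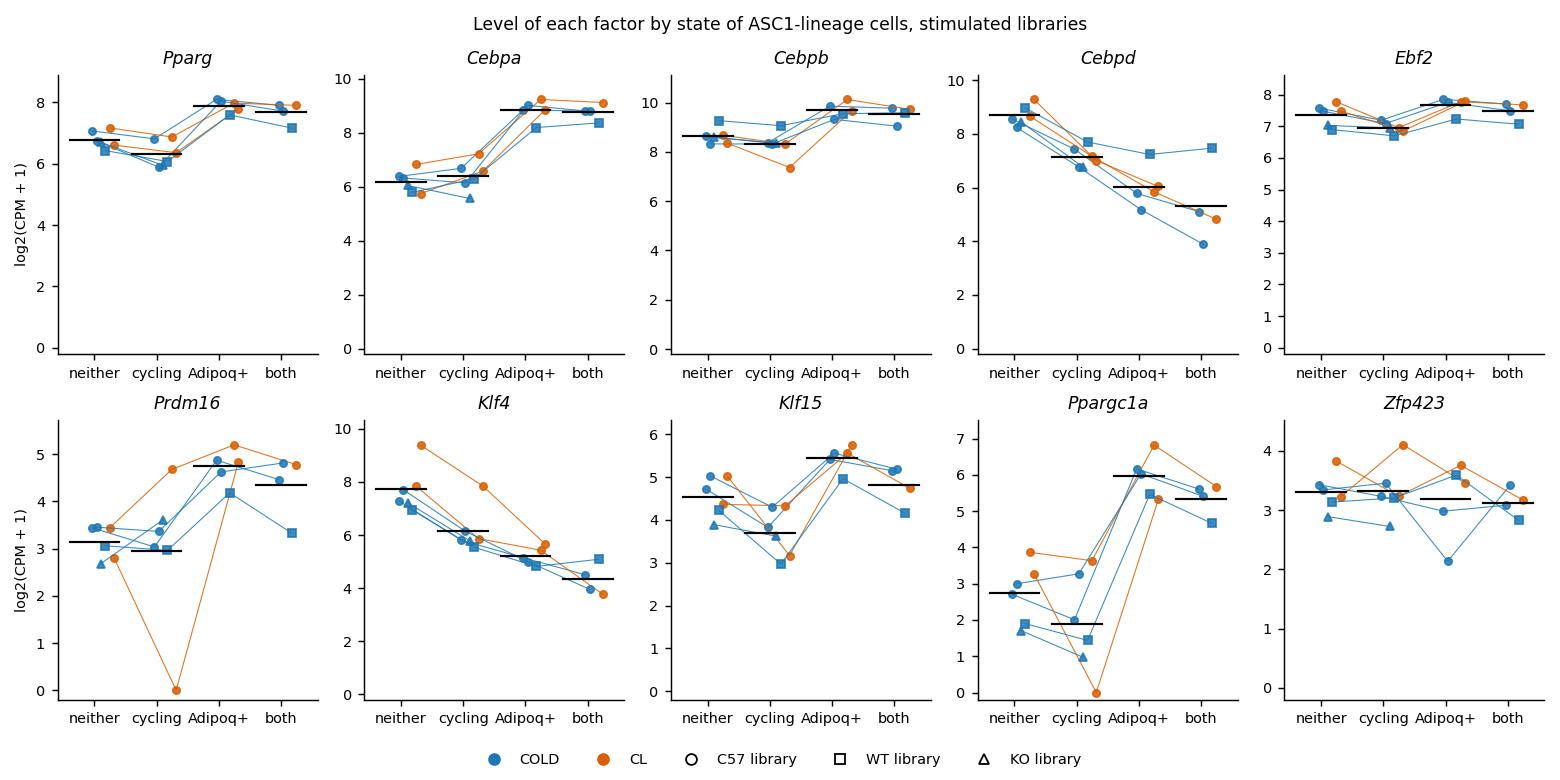
Level of each factor as log2(CPM + 1) in ASC1-lineage cells in neither state, cycling, Adipoq-positive and in both states. Points are libraries of stimulated mice with at least 20 cells in the state, lines join points of the same library, colour is the treatment and bars are means. Cebpa and Ppargc1a are high in both Adipoq-positive states and Cebpd and Klf4 are low there.

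Ppargc1a was at 5.52, 6.99, 13.6, 8.65 and 2.73 CPM in neither-state cells of COLD 1, COLD 2, CL 1, CL 2 and WT COLD, and at 70.8, 64.4, 112, 39.2 and 43.2 CPM in Adipoq-positive cells of the same libraries. Every library rose and the ranges did not overlap. The log2 fold change was 3.38 ± 0.18 (adjusted p = 2.40e-12, edgeR). Cebpa, in the same order, was at 82.6, 79.3, 113, 52.7 and 54.4 CPM in neither-state cells and 462, 518, 604, 461 and 293 CPM in Adipoq-positive cells. Again no value of one state reached the other, and the change was 2.68 ± 0.15 (adjusted p = 2.42e-12, edgeR).

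Pparg was at 133, 107, 143, 96.6 and 85.3 CPM in neither-state cells and 274, 263, 251, 219 and 193 CPM in Adipoq-positive cells, a rise of 1.18 ± 0.11 (adjusted p = 7.35e-09, edgeR). Its rise was smaller than that of Cebpa in each of the 5 libraries, and its ranges were also separate. Prdm16 rose by 1.66 ± 0.18, from a range of 5.42 to 9.96 CPM over 6 libraries to 17.2 to 35.7 CPM over 5. Klf15 rose by 0.86 ± 0.13, from 13.8 to 31.7 CPM to 30.2 to 52.8 CPM, with overlapping ranges. Ebf2 rose least, by 0.37 ± 0.10 (adjusted p = 0.00244, edgeR), and its ranges of 118 to 218 and 149 to 230 CPM overlapped widely.

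Cebpb was at 395, 319, 407, 326 and 615 CPM in neither-state cells and 926, 637, 1115, 813 and 748 CPM in Adipoq-positive cells. WT COLD, the highest library in the first state, rose least. The change was 1.18 ± 0.18 (adjusted p = 6.56e-06, edgeR). Cebpd moved the other way, from 373, 302, 405, 624 and 499 CPM to 54.2, 35.2, 56.4, 64.9 and 150 CPM, a change of -2.68 ± 0.25 (adjusted p = 3.38e-09, edgeR). Klf4 fell from 155, 208, 227, 665 and 122 CPM to 34.4, 31.1, 42.0, 49.8 and 27.2 CPM, a log2 fold change of -2.50 ± 0.19 (adjusted p = 1.86e-10, edgeR). For both genes the ranges were apart in these libraries. Zfp423 was at 6.42 to 13.2 CPM in neither-state cells and 3.40 to 12.5 CPM in Adipoq-positive cells, a difference of -0.22 ± 0.21 (adjusted p = 0.364, edgeR).

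Cycling cells without Adipoq showed another pattern. Of the 10 factors, 5 were lower than in neither-state cells (Pparg, Cebpd, Ebf2, Klf4 and Klf15) and none was higher, where 37.7% of all genes passed, 14.1% higher and 23.7% lower. Klf4 fell by 1.71 ± 0.17 and Cebpd by 1.64 ± 0.22 on the log2 scale. Klf4 stood at 122 to 665 CPM in neither-state cells and 45.5 to 229 CPM in cycling cells over 6 libraries, and the difference was seen within each library. Pparg fell by 0.59 ± 0.12 (adjusted p = 0.000412), Ebf2 by 0.49 ± 0.10 (adjusted p = 0.000486) and Klf15 by 0.94 ± 0.16 (adjusted p = 6.65e-05, edgeR). Pparg in cycling cells was at 112, 58.3, 116, 81.4, 66.4 and 60.8 CPM in COLD 1, COLD 2, CL 1, CL 2, WT COLD and KO COLD, each below its own library's neither-state value. Cebpa differed by 0.10 ± 0.14 (adjusted p = 0.615) and Cebpb by -0.38 ± 0.17 (adjusted p = 0.0876, edgeR). The CL 2 sum of cycling cells held only 20 cells and had no count of Prdm16 or Ppargc1a.

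Among cycling cells, those with Adipoq were compared with those without. The same 9 factors passed, each in the direction seen in non-cycling cells, where 54.2% of genes passed, 25.7% higher and 28.5% lower. Ppargc1a rose by 3.23 ± 0.30, Cebpa by 2.42 ± 0.16, Pparg by 1.48 ± 0.14, Klf15 by 1.33 ± 0.19, Prdm16 by 1.31 ± 0.26, Cebpb by 1.25 ± 0.20 and Ebf2 by 0.64 ± 0.12. Cebpd fell by 1.64 ± 0.30 and Klf4 by 1.47 ± 0.26. Cebpa in cells that were both cycling and Adipoq-positive was at 446, 444, 558 and 330 CPM in COLD 1, COLD 2, CL 1 and WT COLD, against 102, 69.8, 148 and 77.6 CPM in cycling cells without Adipoq. The Cebpa ranges did not overlap. These 4 libraries are also among those of the other state comparisons.

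**Figure D4:**
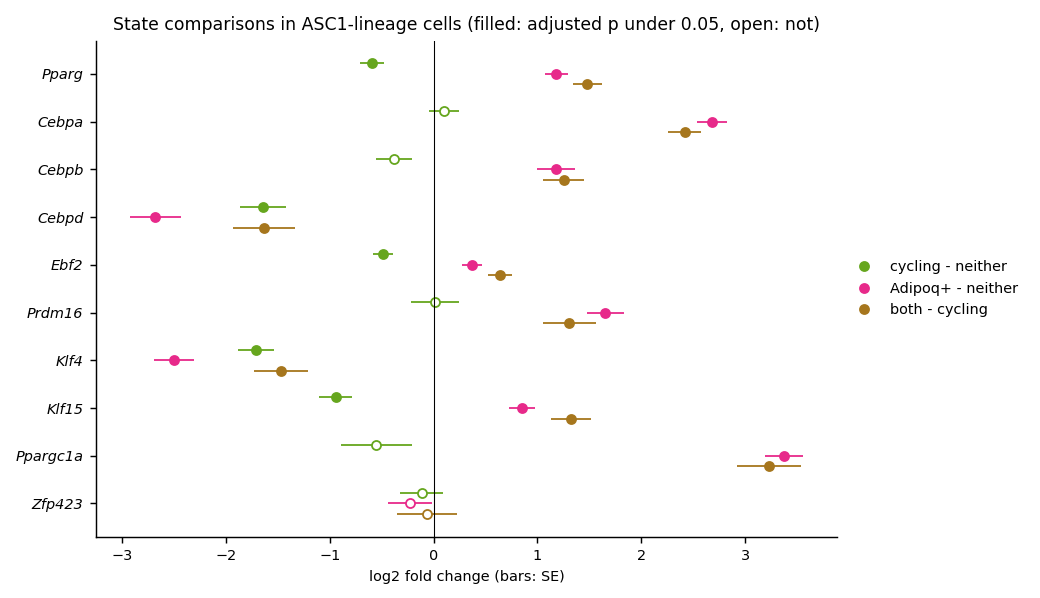
Log2 fold change with SE (bars) of each factor in 3 comparisons of ASC1-lineage states, from edgeR with the library as a block. Filled points passed an adjusted p of 0.05. Cebpa lies near 0 between cycling and neither-state cells (0.10) and rises with Adipoq in both cycling (2.42) and non-cycling cells (2.68), while Zfp423 passes in none of the 3 comparisons.

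The 3 counts of 5, 9 and 9 factors were the same under each of 15 alternatives, among them an Adipoq count of at least 3, a cycle gate of 0.4%, the C57 libraries alone, DESeq2 and each library left out. The states also differ in measures that can move with the factors. Median UMIs per cell ranged from 1738 to 8403 in neither-state cells, 2836 to 10287 in cycling, 3486 to 11709 in Adipoq-positive and 5346 to 11267 in cells of both states. Immediate-early genes were lower, with 14 of 16 passing in cycling cells, 15 of 16 in Adipoq-positive cells and 11 of 16 in cells of both states against cycling ones. Their sum was 6032 to 14731 CPM in neither-state cells and 2271 to 4346 CPM in Adipoq-positive cells. Depth and immediate-early genes therefore moved with the fall of Klf4 and Cebpd, and their part was not tested.

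The targets of these factors moved with the Adipoq gate, for which Adipoq itself was used and is no finding. The differentiating clusters were also named from adipocyte markers that include the lipid gene Gpd1 and the thermogenic genes Cidea and Ucp1. Counts of lipid and thermogenic genes, here and in the next paragraph, are therefore not independent of how the cells were chosen. Counts here stand beside 30.5% of all genes higher and 37.1% lower. With Adipoq left out, 18 of 19 lipid genes rose and 0 fell in Adipoq-positive against neither-state cells, with Car3, which the authors also used to set the ambient RNA correction, at 5.48 ± 0.39. Of 10 thermogenic genes tested, 9 rose, led by the β3-adrenergic receptor gene Adrb3 (4.89 ± 0.24) and Ucp1 (3.76 ± 0.30), and Elovl3, an enzyme of fatty acid elongation, fell (-0.83 ± 0.25). Of 30 further regulators, 12 rose and 10 fell. The largest rises were those of Irf4 (4.50 ± 0.42), a partner of PGC-1α, and Ppargc1b (4.09 ± 0.16), its paralogous coactivator, and the largest falls those of Klf9 (-1.85 ± 0.17) and Klf6 (-1.81 ± 0.24). Of 19 genes listed as repressors, 14 fell, led by Runx1t1 (-2.84 ± 0.24) and Snai2 (-2.64 ± 0.19). The 2 that rose were Zbtb7b (0.86 ± 0.15) and Rb1 (0.63 ± 0.15), and whether they act as repressors here was not tested. The list medians were 3.46 for lipid genes without Adipoq, 1.76 for thermogenic genes, -0.03 for the further regulators and -0.84 for the repressors, with 1.02 for the 10 factors and -0.08 for all genes.

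In cycling cells without Adipoq, where 37.7% of all genes were called and 23.7% were lower, the called members of these lists were all lower, with 5 of 19 lipid genes other than Adipoq, 7 of 10 thermogenic genes, 13 of 30 further regulators and 7 of 19 repressors lower. Ppara (-2.41 ± 0.54) and Klf9 (-1.16 ± 0.16) led the further regulators. Klf2 (-1.15 ± 0.20) and Zbtb7b (-0.83 ± 0.19) led the genes listed as repressors. Adipoq-positive cycling cells, where 25.7% of all genes were higher and 28.5% lower, had 15 of 19 lipid genes other than Adipoq and 7 of 10 thermogenic genes higher and none lower. There 14 of 30 further regulators rose, led by Ppara (3.85 ± 0.52) and Ppargc1b (3.69 ± 0.23), and 5 fell. Of 19 genes listed as repressors 11 fell, led by Irx3 (-2.91 ± 0.51) and Runx1t1 (-2.57 ± 0.35). In the same list 3 rose, led by Dlk1 (1.14 ± 0.37) and Zbtb7b (0.94 ± 0.25).

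VEC-like cells were used to look at adipocyte RNA that arrives with Adipoq in a cell that does not make it. They leave out a cluster of 3516 cells, 3192 of them in CL 1, that stayed unnamed because erythroid genes led it. That cluster had 8 endothelial and 7 adipocyte markers raised, with Cidea, Cox8b and Ucp1 among its leading genes. The shares below therefore do not cover all cells with endothelial markers. Adipoq-positive VEC-like cells numbered 30 of 2368 in CL 1 (1.27%, 95% exact binomial interval 0.856% to 1.80%) and 0 to 7 in the other libraries, with none in CL 2 (0 of 271, upper bound 1.35%). Median UMIs per cell over the libraries were 838 to 2280 in VEC-like cells and 1560 to 8280 in ASC1-like cells, so the shares were measured at unlike depth. Only CL 1 had the 20 cells needed, so no test was possible. The 30 cells of CL 1 held 46461 UMIs in all, so their values rest on few counts, and the 95% exact Poisson intervals given cover counting error only. Cebpa had 5 counts in the Adipoq-positive cells, at 117 CPM (34.9 to 251), and was at 36.9 CPM (30.6 to 44.5) in the Adipoq-negative VEC-like cells, with overlapping intervals. Cebpb had 16 counts, at 352 CPM (197 to 559) against 126 CPM (114 to 140), with separate intervals. Pparg had 8 counts, at 171 CPM (74.3 to 339) against 252 CPM (235 to 270), and Klf4 33 counts, at 710 CPM (489 to 997) against 696 CPM (666 to 726), both with overlapping intervals. Ppargc1a had 0 counts, which allows up to 79.4 CPM, above its 3.85 CPM in the Adipoq-negative cells. These CL 1 values have no replicate.

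In the Adrb1 line each group was 1 pool, so values carry 95% exact Poisson intervals that cover counting error only, and nothing was tested. Adrb1 itself had 10 counts in ASC1-like cells of WT RT and 43 in WT COLD, against 0 in KO RT and 3 in KO COLD, in the direction of the labels. Cebpb in ASC1-like cells was at 158 CPM (139 to 177) in WT RT and 615 (601 to 630) in WT COLD, and at 267 (240 to 296) in KO RT and 398 (383 to 413) in KO COLD. Cold values were the higher in both genotypes. Klf4 was at 606 (569 to 644) and 126 (119 to 133) CPM in WT, and 425 (392 to 461) and 154 (145 to 164) CPM in KO, RT before COLD. The immediate-early genes in the same cells summed to 20852 and 6750 CPM in WT and 23589 and 6241 CPM in KO, and 20.6% and 3.01% of the WT barcodes and 41.3% and 5.23% of the KO barcodes failed the mitochondrial filter. The part of either in these values was not tested. Klf15 was at 42.2 and 17.2 CPM in WT and 39.2 and 13.3 CPM in KO, and Ebf2 at 295 and 120 CPM in WT and 267 and 129 CPM in KO. Cebpa was at 38.5 and 50.4 CPM in WT and 33.5 and 63.5 CPM in KO. Of the 10 factors, 8 had the same order of RT and COLD in WT and KO. The exceptions were Prdm16 and Pparg, which was at 117 and 85.1 CPM in WT but 96.0 and 101 CPM in KO. The share of all genes with the same order was not counted, so the count is a description only. It includes orders within counting error, such as that of Zfp423 in WT (7.64 and 7.90 CPM, with overlapping intervals). RT libraries of this line came from kit version 3 and COLD libraries from version 2, so temperature and kit cannot be told apart. Between the COLD pools, the KO pool had less Cebpb and Cebpd (366 against 515 CPM) and more Cebpa, Pparg (101 against 85.1 CPM) and Klf4 than the WT pool, with separate counting intervals. Between the RT pools the order was the reverse for Cebpb, Cebpd (871 in KO against 613 CPM in WT) and Klf4, also with separate intervals, while those of Cebpa and Pparg overlapped.

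Genes whose levels resembled the factors most were sought over 97 sums of class and library, by Pearson correlation of log2(CPM + 1) among 9945 or 9946 genes with a mean of at least 10 CPM. The sums share libraries and depth, and the correlations are a description. Ebf2 was most like Twist1 (r = 0.90) and Hoxc4 (0.86), factors of mesenchymal and positional identity. Cebpa was most like Glrx5 (0.88) and Gsto1 (0.86), Pparg like the claudin gene Cldn15 (0.88), and Klf4 like Tgfbr2 (0.84). Ppargc1a was most like Ndufb9 (0.79) and Ndufs7 (0.77), subunits of respiratory complex I, and Hadh (0.77), an enzyme of fatty acid oxidation. Cebpb was most like Sfxn1 (0.78) and Cebpa (0.75), the only factor among the top 3 of another. Cebpd was most like Slc29a1 (0.80), Prdm16 like 4931406P16Rik (0.84) and Zfp423 like Tshz2 (0.73). Between the factors, the closest pairs were Cebpa with Cebpb (0.75) and Cebpd with Klf4 (0.71).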

How the data were processed

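The deposited matrices hold expected counts per gene and cell: UMI counts that the authors made with Cell Ranger 3.0.1 (build mm10, per the submitters' processing notes) and corrected for ambient RNA with SoupX, using Fabp4 and Car3 as the genes taken to be absent. As a result, 97.2% to 99.6% of the entries above 0 in each library were not whole (within a tolerance of 1e-06), and levels of adipocyte genes depend on how much was removed from each library. Lineage-positive libraries were not used here.

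Cells with at least 10% mitochondrial UMIs, over 15000 UMIs or under 100 genes were removed, the thresholds of the study's methods. Doublets were not removed. Leaving out the highest 6% of Scrublet scores was an alternative. Cells were clustered with scanpy 1.11.5 and leidenalg 0.10.2 (2000 variable genes, 30 components, resolution 1, 35 clusters). The factors and the regulator, repressor, lipid and thermogenic lists, 91 genes, were left out. Class markers outside those lists were not left out, so the names are not independent of the clustering. A cluster was named when at least 50% and at least 3 of the markers of a class were raised 2-fold and the next class trailed by at least 25 percentage points. Exceptions for clusters led by lymphatic, nerve sheath, erythroid, mitochondrial, satellite cell or Cthrc1-type genes were written after the clusters were seen. Cells with 3 or more counts of immune markers (15) were left out of the ASC1-lineage set.

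Counts were summed per library and class, rounded and fitted with edgeR 4.0.16 in R 4.3.3 (TMM, filterByExpr, glmQLFit, glmQLFTest, two-sided). P-values were adjusted by the Benjamini-Hochberg method across every gene fitted, and the threshold was 0.05. SE was derived from the F statistic. DESeq2 1.42.0, other normalization, no filter, finer clustering, a replicate block and leaving out each library were alternatives, and the script was tested on simulated data. Replicates of a group differed beyond sampling noise (chi-square per degree of freedom 19.7 to 46.3). The libraries are pools. In fits without a block, p-values measure the spread between the pools of a group. With the library as a block, they measure how far differences between classes or states vary from library to library. By the study's methods, C57 libraries of RT, COLD and CL were merged by replicate experiment, with only the pair of RT and COLD spelled out. Deviations from group means of same-numbered libraries correlated between -0.14 and 0.37 over pairs of groups and classes. Fits without a block on this number are given first, and fits with it beside each result whose call it changed.

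The factors, pathway lists and markers were chosen with earlier results of these data known. All 10 factors were named in every comparison, with the 2 called genes of largest change per list and direction and up to 3 genes of most similar level per factor, some of which are not reported here.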

Additional observations from a re-analysis of the deposited data

Results flagged for a closer look

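For 4 factors the response to cold in ASC1-like cells was unlike that in ASC2-like cells, by the test of the difference itself (edgeR, 6 C57 libraries, ASC1-like minus ASC2-like, log2 scale). Cebpb differed by 1.21, Cebpd by -1.25, Klf4 by -1.51 and Klf15 by -1.28. Over 12 alternatives the directions were kept, with ranges of 0.85 to 1.61 for Cebpb, -1.43 to -1.07 for Cebpd, -1.75 to -1.27 for Klf4 and -1.70 to -0.97 for Klf15. The test was passed in 8 of 12 alternatives by Cebpb, 6 by Cebpd, 8 by Klf4 and 7 by Klf15. In the comparison of COLD with RT within ASC1-like cells, 0 of these 4 passed.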

How the results depend on the processing

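Of 10 factors, the count called in ASC1-like cells after cold was 0. It became 4 with no filter on low counts (Cebpa, Cebpb, Prdm16, Klf15) and 4 with the Adrb1-line libraries added (Cebpa, Cebpb, Klf4, Klf15). With the replicate number as a block it became 2 (Cebpa, Klf15), where 16.6% of all genes were called (2.03% with CL). Shares of all genes under each other alternative are not reported here, so the count is no result about the factors. Leaving out 1 library gave 0 to 2 (without RT 1 Cebpb, without CL 1 or CL 2 Cebpa and Klf15). With CL it was 0 and became 1 with no filter, 1 with the replicate block (Klf15 in both) and 0 to 1 when leaving out a library (Cebpb without RT 1). In ASC2-like cells after cold it was 0 and became 1 with no filter and 1 with the replicate block (Cebpa in both). The block called 2.19% of all genes there. With the Adrb1-line libraries added it became 2 (Cebpa, Ebf2). The added RT libraries were of kit version 3 and drew most ASC2-like cells from a cluster of their own. In VEC-like cells with CL it became 1 with no filter (Cebpa). The 4 calls for the difference in cold response became 0 at clustering resolution 2, 0 with the replicate block, which there replaces the library, and 0 to 4 when leaving out a library (0 without COLD 1, Klf15 alone without COLD 2). With DESeq2 they were 3, without Klf15 (adjusted p = 0.159). The difference in CL response, 0, became 1 with no filter and 0 to 1 when leaving out a library (Cebpb without RT 1). The cause of these moves was not tested, except that added libraries and the dropped filter change the samples or genes fitted. State counts of 5, 9 and 9 did not move. The replicate block changed no other call. In the difference fits the library, which is nested in the replicate number, is already a block. Counts over all genes moved more: 1344 genes called in ASC1-like cells after cold against 454 to 3728, 111 with CL against 22 to 653, and 986 for the difference in cold response against 149 to 1321. Adding the unnamed cluster led by Saa3 and Reg1 to ASC1-like cells, an alternative chosen after seeing the data, left 0 factors called. A mean over cells in place of sums moved 1 of 40 levels (Cebpb in ASC3-like cells) by more than its SD. The test of Adipoq-positive against Adipoq-negative VEC-like cells, and its alternatives, were not run, because only 1 library had enough cells. Low counts limit Prdm16, Ppargc1a and Zfp423 in stromal cells.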

Other observations

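A stromal cluster led by Cthrc1, Lrrc15 and Sfrp2, in which 8 of 9 ASC2 markers and 11 of 12 cell cycle genes were also raised, held 1665 cells in CL 1, 333 in CL 2 and 4 to 67 in the other libraries. In CL 1 and CL 2 its Cebpb level was 135 and 126 CPM, its Cebpd level 180 and 231 CPM and its Klf15 level 1.06 and 2.95 CPM. In ASC2-like cells of CL 1 and CL 2 Klf15 was at 4.31 and 7.92 CPM. Smooth muscle-like cells of the C57 libraries held Ebf2 at 216 ± 84.9 CPM and Prdm16 at 31.9 ± 10.2 CPM (SD, n = 6), against 12.1 ± 4.02 CPM of Ebf2 and 90.5 ± 33.7 CPM of Prdm16 in VEC-like cells.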
